A study of Homo sapiens with 12 samples.

Results

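The lysosome genes were the genes that the deposited annotation placed in the KEGG Lysosome pathway, apart from SLC11A2 and CTSG, which left 120 of the 36866 genes in the table. They were followed in 4 groups of 3 libraries each: THP-1 cells with DMSO, THP-1 cells with honokiol, U-937 cells with DMSO and U-937 cells with honokiol. THP-1 is a human monocytic line from an acute myeloid leukemia, and U-937 is a human monocytic line that the study also used as a model of this leukemia. Honokiol is a biphenol from magnolia bark. The cells were exposed for 24 h, the controls to 0.1% DMSO, and poly(A) mRNA was then sequenced as read pairs. The sample labels give 20 μM and 35 μM honokiol without saying which line received which dose, so line and dose cannot be told apart in what follows. Each line derives from 1 donor, and no label says that the 3 libraries of a group came from separate cultures, so p-values measure only the spread between these libraries.

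The lysosome is the acidic compartment in which cells break down proteins, sugars, lipids and nucleic acids. Most of its hydrolases are tagged with mannose 6-phosphate in the Golgi and carried by receptors in clathrin-coated vesicles, while a proton pump (the V-ATPase) keeps the lumen acidic. Monocytes and macrophages are rich in lysosomes, and transcription factors of the MiT-TFE family (TFEB, TFE3, MITF and TFEC) are known to drive many lysosome genes through a CACGTG-containing element in their promoters. By role, the 120 genes were 32 of enzyme sorting and the vesicle coat, 23 membrane proteins and transporters, 17 cathepsins and other proteases, 17 glycosidases, 10 lipid hydrolases and their activators, 9 proton pump subunits, 8 of the sulfatase group and 4 phosphatases and nucleases. The sulfatase group includes SUMF1, an enzyme that activates sulfatases.

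The promoters of the lysosome genes were read for this element, since many of the genes are described together below. RefSeq promoters on GRCh38.p14, 250 bases before to 50 bases after the start, were at hand for 90 of the 120 genes as 135 promoters. Of these, 25 (18.5%) held CACGTG against 7.26% of all 35116 promoters, and 22 (16.3%) held TCACGTG on either strand, which contains it, against 3.71%. The longest form, CACGTG preceded by GT and followed by AC, was in 5 (3.70%) against 0.353%. The windows printed here are from CTSD, AP1S2 and ATP6V0B, whose levels with honokiol are described below, and from the 5 genes with the longest form, with CACGTG in capitals on the gene's strand. They lie at chr11:1763958-1763984 (minus) for CTSD, chrX:15855030-15855056 (minus) for AP1S2, chr1:43974892-43974918 (plus) for ATP6V0B, chr17:80101493-80101522 (plus) for GAA, chr19:7522598-7522627 (plus) for MCOLN1, chr16:88857104-88857133 (minus) for GALNS, chr6:159969042-159969071 (plus) for IGF2R and chr16:1351907-1351936 (plus) for GNPTG.
CTSD: cggccgcgccCACGTGaccggtccggg
AP1S2: cgcttccgggtCACGTGgcccggcttc
ATP6V0B: cggcgtggggtCACGTGgtaccggcgc
GAA: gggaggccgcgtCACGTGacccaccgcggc
MCOLN1: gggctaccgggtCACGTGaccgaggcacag
GALNS: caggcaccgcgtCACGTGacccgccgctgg
IGF2R: ccgggcggctgtCACGTGacgcggttccgg
GNPTG: ggtccccgtggtCACGTGaccgtcacttca

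Levels are given as FPKM, fragments scaled to transcript length and to the library's total. Changes are log2 fold changes, honokiol minus DMSO, with their standard errors (SE), fitted on the deposited estimated counts. The deposited ranges of 33 lysosome genes, GM2A, LIPA, GGA3, CD68, M6PR, NPC1, ACP2, IDUA and ARSG among them, overlap another gene with at least 10% of their mean count, and since strand use in the counting is not given, reads of such partners cannot be told apart. The totals per library were 57406966 to 75065752 estimated counts, or about 14351742 to 18766438 fragments, since a fragment is worth about 4 counts. The cells matched their label as monocytic: of 11 monocytic markers 8 to 10 had a mean FPKM of at least 1 in each group. MPO, CD14 and CD86 were under it in U-937 with DMSO. These markers summed to 473 to 890 per library. Erythroid markers summed to at most 0.44, T-cell markers to at most 4.05, B-cell markers to 3.47 to 6.23 and epithelial and fibroblast markers to 0.14 to 4.98. By the same limit 2 to 3 B-cell markers passed in each group. So did 1 T-cell marker in U-937 with DMSO and 1 epithelial or fibroblast marker in THP-1. The markers were read for cell type, not for which line is which. DMSO replicate 1 of each line stood apart, with 13.7% (THP-1) and 12.6% (U-937) of its counts from mitochondrial genes against 5.61% to 7.55% in the other libraries. The part of this difference in the results was not tested. Without that library the sign of the fitted honokiol change turned for 17 of 109 lysosome genes in THP-1 and 11 of 99 in U-937, and values without it are gathered below for described genes with larger shifts.

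As a group, the lysosome genes had a higher summed level with honokiol than with DMSO in both lines. In THP-1 the sum over the 120 genes was 3340, 2986 and 3460 FPKM in the DMSO libraries and 3650, 3917 and 4177 FPKM with honokiol. In U-937 it was 2491, 2645 and 2363 FPKM with DMSO and 3142, 3470 and 3713 FPKM with honokiol. The treatments did not overlap in either line, and the ratio of the means was 1.20 for THP-1 and 1.38 for U-937. Without a correction for transcript length the ratios were smaller, 1.16 and 1.32 as CPM over the library's total and 1.11 and 1.23 as CPM over TMM-scaled totals. The sum rested on few genes: CTSD, LAPTM5, PSAP, PPT1 and CTSZ, the 5 with the highest mean level, made up 41.2% of it in DMSO-treated THP-1 cells and 47.1% with honokiol, and 39.5% and 49.8% in U-937 cells. In bulk RNA a higher share of a transcript in each cell and a larger share of cells that carry it cannot be told apart.

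No lysosome gene passed an adjusted p of 0.05 in the honokiol comparison of either line by edgeR's quasi-likelihood test, of 109 THP-1 genes and 99 U-937 genes tested. Few genes of any kind did, 0.0411% of all THP-1 genes tested and 0.0947% of all U-937 genes. DESeq2 called 4 lysosome genes for THP-1 and 8 for U-937, beside 3.46% and 5.76% of all genes, and limma on the FPKM values called 0 for both lines. The values below are therefore given as sizes with their spreads. At an unadjusted p under 0.05, 20 lysosome genes differed in THP-1, of which 14 were higher and 6 lower with honokiol, against 6.84% higher and 6.22% lower among all genes tested. In U-937 the same limit held for 23 genes, 22 higher and 1 lower, against 8.25% and 8.44% of all genes. The FPKM of the 3 honokiol libraries lay wholly above the 3 DMSO libraries for 22 lysosome genes in THP-1 and wholly below for 9, where all genes gave 13.0% and 7.62%. In U-937 the libraries were wholly above for 26 and wholly below for 0, where all genes gave 16.7% and 7.50%.

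The median log2 change of the lysosome genes was 0.02 in THP-1, with 60 higher and 49 lower, and 0.17 in U-937, with 73 higher and 26 lower. The medians over all genes tested were -0.001 and 0.016. When the FPKM values were compared with a pseudocount of 0.1, the median of all genes itself moved to 0.108 in U-937, and that of the lysosome genes to 0.28. With a library left out the U-937 median ran from 0.08 without honokiol replicate 3 to 0.26 without honokiol replicate 1. The counts also depended on single libraries. Without honokiol replicate 3 of THP-1, 6 genes met the unadjusted limit, 10 without honokiol replicate 2 and 12 without DMSO replicate 2. Without honokiol replicate 3 of U-937, 10 genes met it. Without DMSO replicate 1, the library rich in mitochondrial counts, 19 met it in THP-1, 16 of them higher, and 22 in U-937, 20 of them higher.

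**Figure D1:**
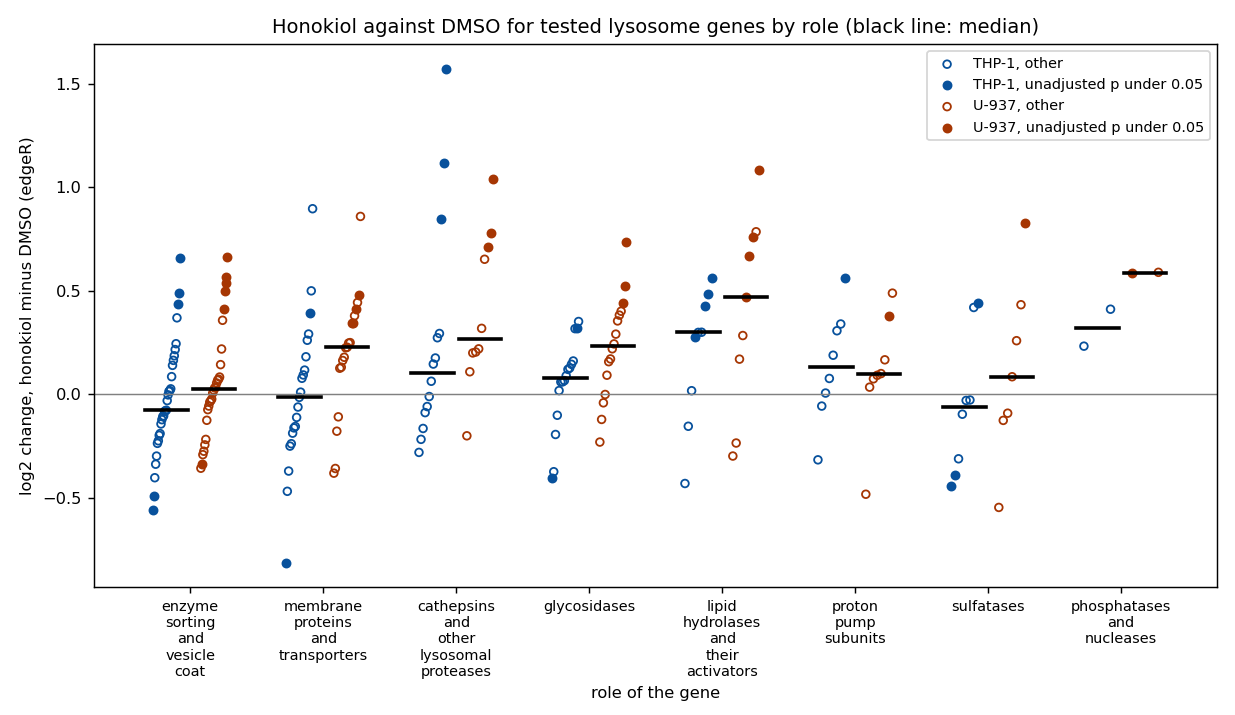
Log2 change with honokiol (vertical axis, edgeR fit on estimated counts) for each tested lysosome gene, grouped by role along the horizontal axis, in THP-1 (blue) and U-937 (orange). Filled points have an unadjusted p under 0.05, black lines are medians, and the lipid hydrolases and their activators have medians of 0.30 and 0.47, while the vesicle coat and sorting genes lie around 0 in both lines.

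The proteases carried the largest part of the higher sums. Over the 17 cathepsins and related proteases, which cut proteins in the lumen, the summed level was 1.64 times as high with honokiol in THP-1 and 1.88 times in U-937. The mean sum went from 651 to 1066 FPKM in THP-1 and from 755 to 1419 FPKM in U-937. Most of this was CTSD, whose mean went from 297 to 552 FPKM and from 513 to 1122 FPKM. The median log2 change of the role was 0.11 in THP-1, with 8 higher and 6 lower, and 0.27 in U-937, with 9 higher and 1 lower. Of the 14 tested in THP-1 and the 10 tested in U-937, 3 in each line had an unadjusted p under 0.05, all higher.

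CTSD (cathepsin D, the main aspartic protease of the lysosome, chr11:1752755-1764573 on GRCh38, minus strand) was the most abundant lysosome gene. It read 233, 267 and 391 FPKM in DMSO-treated THP-1 cells and 487, 552 and 616 FPKM with honokiol. In U-937 it read 488, 628 and 423 FPKM with DMSO and 963, 1137 and 1265 FPKM with honokiol. The groups did not overlap in either line. The log2 change was 0.85 with an SE of 0.20 in THP-1 (adjusted p = 0.176) and 1.04 with an SE of 0.20 in U-937 (adjusted p = 0.0798), and DESeq2, run as an alternative, called it in both lines.

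CTSL (cathepsin L, a cysteine protease, chr9:87726109-87731393, plus strand) had the largest fitted change of the lysosome genes in THP-1. Its level was 42.3, 37.3 and 62.6 FPKM with DMSO and 89.9, 172 and 178 FPKM with honokiol, a log2 change of 1.57 with an SE of 0.29 (adjusted p = 0.134). All honokiol libraries were above all DMSO libraries, and replicate 1 was the lowest of the honokiol libraries. Left out, that library brought the adjusted p under 0.05, as DESeq2 did on all 6 libraries. In U-937 the gene was almost absent, at 0.18, 0.02 and 0 FPKM with DMSO and 0.17, 0.33 and 0.24 FPKM with honokiol, and it was not tested there.

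CTSF, a cysteine protease at a low level, was the third gene of this role at the unadjusted limit in THP-1. It read 0.12, 0.35 and 0.39 FPKM with DMSO and 0.56, 0.76 and 0.62 FPKM with honokiol, without overlap (log2 change 1.12, SE 0.42, adjusted p = 0.335), and at most 0.02 FPKM in U-937.

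CTSS, a cysteine protease of antigen-presenting cells, was at 9.09, 17.3 and 12.8 FPKM in U-937 with DMSO and 20.6, 17.2 and 30.0 FPKM with honokiol, where the highest DMSO library lay just above the lowest honokiol library (log2 change 0.71, SE 0.27, adjusted p = 0.25). In THP-1 its log2 change was 0.27 (SE 0.21). CTSB, the cathepsin B gene, had log2 changes of 0.18 (SE 0.13) in THP-1 and 0.32 (SE 0.18) in U-937. CTSZ, a carboxypeptidase and one of the 5 most abundant lysosome genes, had 0.29 (SE 0.15) and 0.11 (SE 0.14). CTSO, another cysteine protease, was at 1.01, 1.10 and 0.73 FPKM in U-937 with DMSO and 1.76, 1.60 and 1.85 FPKM with honokiol, without overlap (log2 change 0.78, SE 0.26, adjusted p = 0.214), while in THP-1 its libraries overlapped. CTSC, the dipeptidyl peptidase that activates granule proteases, had -0.06 (SE 0.12) and -0.20 (SE 0.14).

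**Figure D2:**
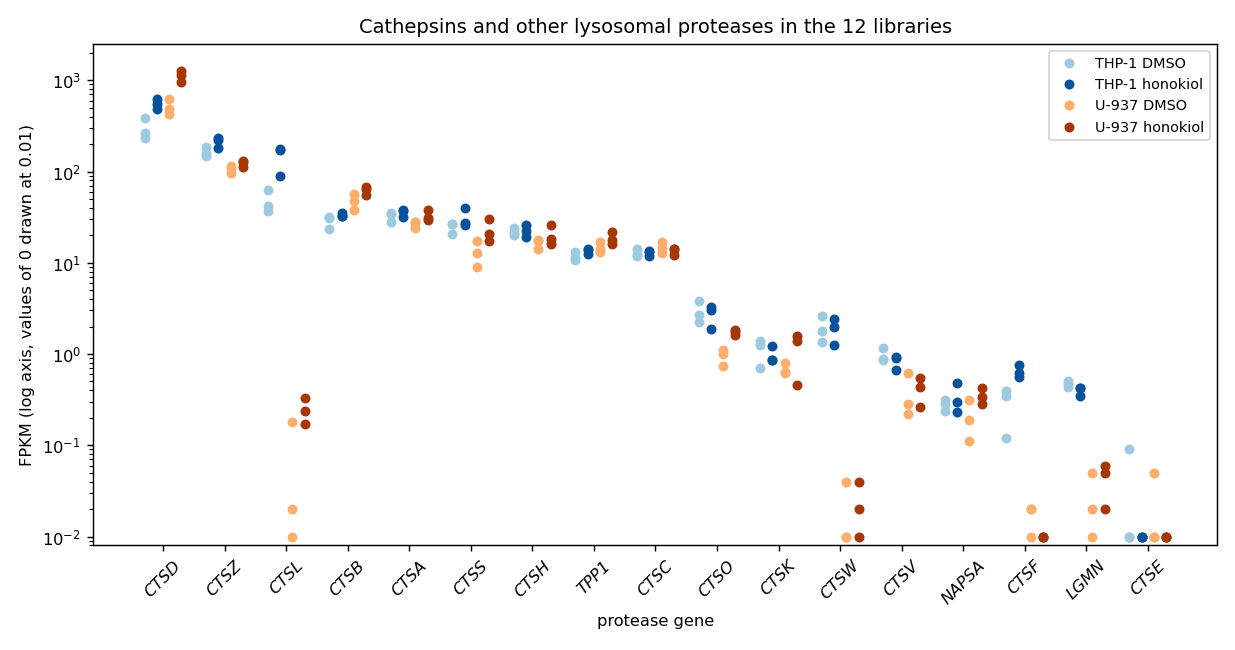
FPKM of the 17 lysosomal proteases in each of the 12 libraries on a log axis, with values of 0 drawn at 0.01, ordered by mean level. CTSD and, in THP-1, CTSL separate honokiol (dark) from DMSO (light), and CTSL lies at 37.3 to 178 FPKM in THP-1 libraries and at most at 0.33 FPKM in U-937 libraries.

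Among the 10 lipid hydrolases and their activators, which break down sphingolipids, neutral lipids and lipidated proteins, 9 were tested. In each line 4 of the 9 had an unadjusted p under 0.05, all higher: PSAP, GM2A, LIPA and ASAH1 in both. The median was 0.30 for THP-1 and 0.47 for U-937, and the summed level was 1.39 and 1.37 times that with DMSO.

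PSAP encodes prosaposin, the precursor of the saposins that present sphingolipids to their hydrolases. It read 194, 303 and 347 FPKM in THP-1 with DMSO and 383, 442 and 459 FPKM with honokiol, and 70.3, 109 and 74.5 FPKM in U-937 with DMSO and 113, 159 and 186 FPKM with honokiol. The honokiol libraries lay above the DMSO libraries in both lines, with log2 changes of 0.56 (SE 0.20, adjusted p = 0.31) and 0.76 (SE 0.23, adjusted p = 0.185). GM2A, the activator protein for the breakdown of ganglioside GM2, read 12.1, 14.6 and 14.2 FPKM in U-937 with DMSO and 23.2, 22.6 and 23.1 FPKM with honokiol. Its U-937 change of 0.67 (SE 0.12) had the smallest adjusted p of any lysosome gene in a honokiol comparison, 0.0711. In THP-1 the same gene went from 27.0, 28.1 and 34.7 FPKM to 38.3, 40.1 and 46.9 FPKM, again without overlap (0.43, SE 0.14, adjusted p = 0.289).

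ASAH1, the acid ceramidase, was low in THP-1, at 2.74, 2.28 and 2.54 FPKM with DMSO and 3.56, 4.16 and 3.32 FPKM with honokiol. In U-937 it read 6.78, 8.87 and 7.87 FPKM with DMSO and 12.3, 17.3 and 23.2 FPKM with honokiol. The groups did not overlap in either line, and the log2 changes were 0.48 (SE 0.16, adjusted p = 0.293) and 1.08 (SE 0.23, adjusted p = 0.0989), the largest fitted change of a lysosome gene in U-937. LIPA, the acid lipase that frees cholesterol and fatty acids from lipoprotein lipids, had log2 changes of 0.28 (SE 0.12) and 0.47 (SE 0.15), with libraries that did not overlap in either line. PPT1, which removes palmitate from proteins and was among the 5 most abundant, read 376, 257 and 259 FPKM against 462, 253 and 438 FPKM in THP-1 and 94.2, 65.9 and 95.3 against 50.0, 104 and 68.6 FPKM in U-937. Its libraries overlapped in both lines, and the log2 changes of 0.30 (SE 0.28) and -0.30 (SE 0.27) had opposite signs. NPC2, the carrier that hands cholesterol to the membrane protein NPC1, had 0.30 (SE 0.17) and 0.17 (SE 0.18).

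Of the 98 lysosome genes tested in both lines, 9 (9.18%) had an unadjusted p under 0.05 and were higher with honokiol in both, where 1.75% of the 12343 genes tested in both lines did. They were CTSD, PSAP, GM2A, AP1S2, LIPA, SLC17A5, ASAH1, AP3S2 and ARSG, which are 64.3% of the 14 higher in THP-1 and 40.9% of the 22 higher in U-937. No lysosome gene met this limit in opposite directions, and none was lower in both. The 9 are a protease, 2 lipid hydrolases and 2 of their activators, 2 coat subunits, a transporter and a sulfatase.

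**Figure D3:**
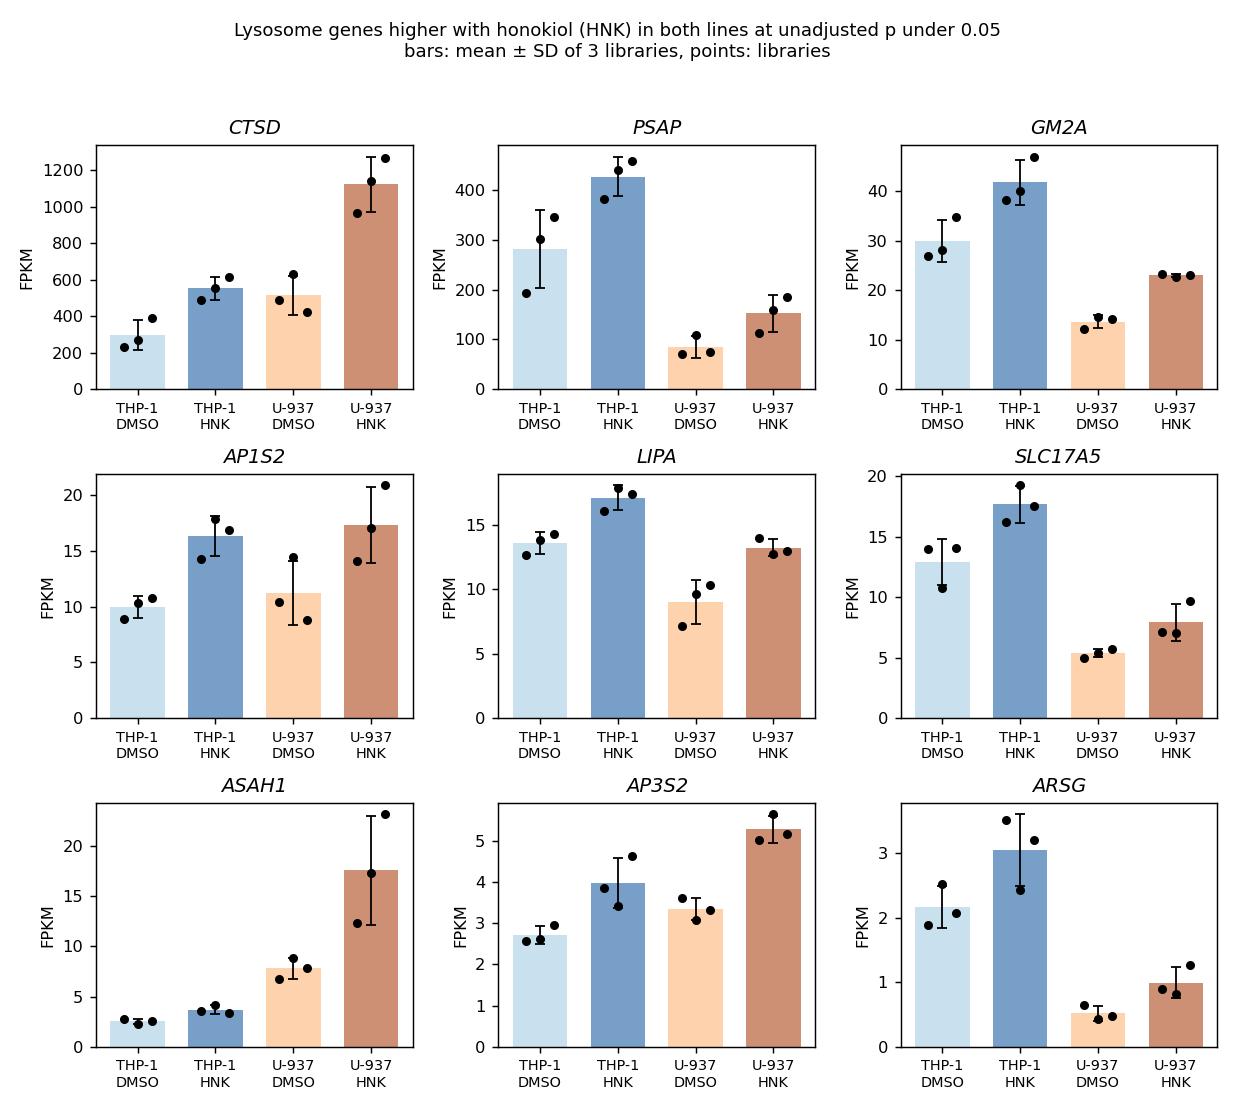
FPKM of the 9 genes (vertical axes, each with its own scale from 0) in the 4 groups of 3 libraries, where bars are means, error bars SDs and points libraries. CTSD ranges from 233 to 391 FPKM in DMSO-treated and from 487 to 616 FPKM in honokiol-treated THP-1 cells, and AP1S2 in U-937 and ARSG in THP-1 are panels in which the treatments overlap.

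AP1S2 (chrX:15825806-15854931, minus strand) encodes a sigma subunit of the AP-1 coat that carries hydrolase receptors from the Golgi. It read 8.85, 10.3 and 10.8 FPKM in THP-1 with DMSO and 14.3, 17.8 and 16.9 FPKM with honokiol, without overlap (0.66, SE 0.13, adjusted p = 0.153). In U-937 it read 10.4, 14.4 and 8.81 FPKM and then 14.1, 17.1 and 20.9 FPKM, where the highest DMSO library exceeded the lowest honokiol library (0.54, SE 0.22, adjusted p = 0.28). AP3S2, a sigma subunit of the AP-3 coat for lysosomal membrane proteins, did not overlap in either line, with 0.49 (SE 0.15) and 0.56 (SE 0.14). AP3S1, the more abundant sigma subunit of that coat, had 0.09 (SE 0.17) and 0.36 (SE 0.20) and did not meet the unadjusted limit. SLC17A5, the exporter of sialic acid from the lysosome, read 14.0, 10.7 and 14.0 FPKM and then 16.2, 19.3 and 17.6 FPKM in THP-1, and 5.00, 5.39 and 5.68 FPKM and then 7.08, 7.01 and 9.71 FPKM in U-937. These did not overlap, and the log2 changes were 0.39 (SE 0.17) and 0.48 (SE 0.18). ARSG, a sulfatase for heparan sulfate, was low, with 0.65, 0.43 and 0.48 FPKM in U-937 with DMSO and 0.90, 0.81 and 1.26 FPKM with honokiol (0.83, SE 0.30) and 0.44 (SE 0.19) in THP-1.

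The number of 9 moved between 3 and 9 when a library was left out, and was lowest without honokiol replicate 3 of THP-1. Without DMSO replicate 1 of both lines, an alternative added after the values were seen, it was 6, and AP1S2, SLC17A5 and ARSG no longer met the limit. RLE size factors gave 7, DESeq2 gave 8 and the FPKM values with a pseudocount of 0.5 gave 10.

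Across the 98 genes the fitted changes of the lines had a Pearson r of 0.447 and a Spearman rho of 0.406, against 0.302 and 0.319 over all genes tested in both. Each line has its own controls. These describe spread across genes, which are not independent and share the libraries of their line. By sign, 46 were higher in both lines, 19 lower in both and 33 opposite.

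**Figure D4:**
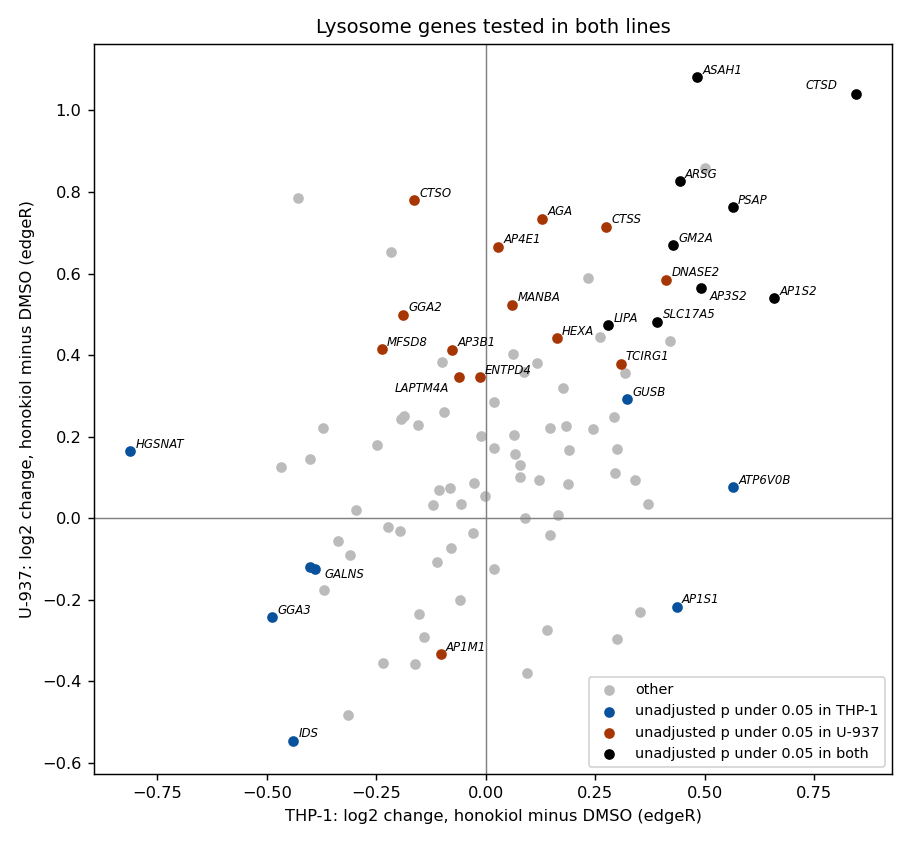
Log2 change with honokiol of the 98 lysosome genes tested in both lines, THP-1 on the horizontal and U-937 on the vertical axis. Black points are the 9 genes with an unadjusted p under 0.05 in both lines, all in the upper right, and HGSNAT stands apart on the left at -0.81 for THP-1 and 0.16 for U-937.

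The glycosidases, which remove sugars from glycoproteins, glycolipids and glycosaminoglycans, were nearer to 0, with a median of 0.08 for THP-1, 0.23 for U-937 and summed levels 1.05 and 1.15 times those with DMSO. In THP-1, 1 of 16 was higher at the unadjusted limit. GUSB, the beta-glucuronidase, read 16.5, 16.3 and 17.7 FPKM with DMSO and 19.0, 24.3 and 22.3 FPKM with honokiol, without overlap (0.32, SE 0.14, adjusted p = 0.369).

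In U-937, 3 of 16 glycosidases were higher and 0 lower at that limit. AGA, which cleaves the bond between sugar and asparagine, read 4.07, 5.66 and 6.72 FPKM with DMSO and 11.1, 9.35 and 8.53 FPKM with honokiol (0.73, SE 0.20, adjusted p = 0.154). Its libraries did not overlap in U-937, while in THP-1 they did (0.13, SE 0.18). The other 2 were MANBA, the beta-mannosidase, at 0.52 (SE 0.20), and HEXA, the alpha chain of hexosaminidase A that works with GM2A, at 0.44 (SE 0.16).

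The 8 genes of the sulfatase group, sulfatases mostly for glycosaminoglycans and their activating enzyme SUMF1, had a median of -0.06 for THP-1 and 0.09 for U-937. In THP-1, ARSG was higher and IDS and GALNS lower at the unadjusted limit. IDS, the iduronate sulfatase, which also has a pseudogene, read 13.0, 9.45 and 11.8 FPKM with DMSO and 8.34, 8.87 and 9.16 FPKM with honokiol, without overlap (-0.44, SE 0.17, adjusted p = 0.335). GALNS, which desulfates keratan sulfate, had -0.39 (SE 0.13). ARSA, the arylsulfatase for sulfatide, lay above DMSO in all honokiol libraries of both lines, with 2.27, 3.47 and 3.44 FPKM and then 3.64, 3.97 and 5.06 FPKM in THP-1, and 1.89, 1.36 and 2.23 FPKM and then 2.72, 2.63 and 2.51 FPKM in U-937. Its log2 changes of 0.42 (SE 0.20) and 0.43 (SE 0.22) had adjusted p-values of 0.41 and 0.367.

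Among the 23 membrane proteins and transporters, the abundant markers of the lysosomal membrane differed little. LAMP1, a major glycoprotein of that membrane, read 49.2, 61.3 and 64.1 FPKM in THP-1 with DMSO and 47.2, 58.5 and 61.6 FPKM with honokiol (-0.11, SE 0.14), and had -0.11 (SE 0.15) in U-937. LAMP2, which also serves chaperone-mediated autophagy, had -0.15 (SE 0.12) and 0.23 (SE 0.17), and the tetraspanin CD63 had 0.08 (SE 0.17) and 0.13 (SE 0.19). Their libraries overlapped in both lines. MCOLN1, the calcium channel of the lysosome, read 2.44, 2.19 and 2.61 FPKM and then 3.07, 3.01 and 3.17 FPKM in THP-1, without overlap (0.29, SE 0.17, adjusted p = 0.479), and had 0.25 (SE 0.24) in U-937 with overlap.

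CD68, the macrophage sialomucin, showed how much 1 library could weigh. It read 321, 134 and 123 FPKM in DMSO-treated THP-1 cells and 105, 149 and 193 FPKM with honokiol, and the fitted change of -0.47 (SE 0.42) turned to 0.20 without DMSO replicate 1. LAPTM5, a membrane protein of blood cells and one of the 5 most abundant, was likewise highest in that library, at 402 FPKM against 226 to 295 FPKM in the other 5 THP-1 libraries. M6PR, the smaller mannose 6-phosphate receptor, was at 75.1 FPKM there against 38.2 to 43.7 FPKM. These 3 genes are high in the THP-1 library with 13.7% mitochondrial counts, and what part that library's state has in their values was not tested.

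Without DMSO replicate 1 of THP-1 the log2 change of M6PR turned from -0.40 to 0.07 and that of LAPTM5 from -0.25 to 0.09. PPT1 moved from 0.30 to 0.57 and ACP2 from 0.23 to 0.38, while DNASE2 moved from 0.41 to 0.27 and IDS from -0.44 to -0.28. Without DMSO replicate 1 of U-937, ATP6V0B turned from 0.08 to -0.13. MCOLN1 moved from 0.25 to 0.45, HGSNAT from 0.16 to 0.35, NPC2 from 0.17 to 0.35 and M6PR from 0.14 to 0.38, whereas PPT1 moved from -0.30 to -0.19 and NPC1 from -0.38 to -0.21. CTSD had 0.85 and 1.04 with all libraries and 0.74 and 1.03 without that library of each line.

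HGSNAT, the enzyme of the lysosomal membrane that acetylates heparan sulfate, had the lowest fitted change in THP-1, -0.81 (SE 0.28, adjusted p = 0.301). It read 6.67, 4.41 and 4.89 FPKM with DMSO and 3.53, 3.86 and 2.14 FPKM with honokiol, without overlap, and in U-937 its libraries overlapped (0.16, SE 0.22). In U-937, 4 of 19 membrane genes were higher and 0 lower at the unadjusted limit, SLC17A5, LAPTM4A, ENTPD4 and MFSD8. LAPTM4A, a protein of late endosomes and lysosomes, read 40.1, 48.3 and 46.4 FPKM with DMSO and 60.5, 57.6 and 63.7 FPKM with honokiol, without overlap (0.35, SE 0.12, adjusted p = 0.222). In THP-1 its 6 libraries lay between 26.6 and 29.3 FPKM.

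The 32 genes of enzyme sorting and the vesicle coat had a median of -0.08 for THP-1 and 0.03 for U-937, and sums 1.02 and 1.09 times those with DMSO, the former 0.998 times as TMM-scaled CPM. In THP-1, 3 of 31 were higher (AP1S1, AP1S2 and AP3S2) and 2 lower (GGA3 and AP4S1) at the unadjusted limit. GGA3, an adaptor that loads hydrolase receptors into vesicles, read 7.62, 8.05 and 6.52 FPKM with DMSO and 6.43, 4.79 and 5.24 FPKM with honokiol (-0.49, SE 0.17, adjusted p = 0.311). In U-937, 5 of 28 were higher (AP4E1, AP3S2, AP1S2, GGA2 and AP3B1) and 1 lower (AP1M1). AP4E1, the epsilon subunit of the AP-4 coat (chr15:50908672-51005895, plus strand), read 4.68, 4.22 and 5.75 FPKM with DMSO and 7.85, 7.94 and 8.90 FPKM with honokiol (0.67, SE 0.15, adjusted p = 0.116). The groups did not overlap in U-937, whereas in THP-1 the change was 0.03 (SE 0.15).

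Neither mannose 6-phosphate receptor met the limit: IGF2R, the larger one, had 0.25 (SE 0.15) and 0.22 (SE 0.18), and M6PR -0.40 (SE 0.30) and 0.14 (SE 0.35). The tagging enzyme subunits GNPTAB and GNPTG lay between -0.12 and 0.07 in both lines.

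The 9 proton pump subunits of the list, mostly of the membrane sector, had summed levels 1.03 and 0.967 times those with DMSO, and without DMSO replicate 1 of U-937 the latter turned to 1.05. ATP6V0B, a proteolipid of the pump's rotor, was at 19.5, 31.8 and 34.2 FPKM in THP-1 with DMSO and 42.8, 42.8 and 44.5 FPKM with honokiol, without overlap (0.56, SE 0.18, adjusted p = 0.286), and had 0.08 (SE 0.22) in U-937. TCIRG1, the a3 subunit, read 10.5, 10.3 and 10.9 FPKM in U-937 with DMSO and 14.0, 14.8 and 15.0 FPKM with honokiol, again without overlap (0.38, SE 0.12, adjusted p = 0.194). In THP-1 the same subunit overlapped (0.31, SE 0.26), with 0.05 when DMSO replicate 1 was left out. ATP6V0C, the most abundant subunit, had -0.32 (SE 0.19) and -0.48 (SE 0.32), and without DMSO replicate 1 of each line these were -0.13 and -0.05.

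Of 17 related pump genes outside the list, 0 passed the adjusted limit in either line. Most belong to the cytosolic sector or to the pump's assembly, while ATP6V0E1 and ATP6V0E2 are of the membrane sector. At the unadjusted limit ATP6V1A, the catalytic subunit, at 0.54 and ATP6V1C2, a C subunit, at 0.91 were higher in THP-1 and VMA21, an assembly factor, was lower at -0.34, while ATP6V1A at 0.49 was higher in U-937. The shares of all genes at this limit are those given above. The lowest values of the list, ATP6V1C1 at -0.46 in THP-1 and ATP6V1C2 at -1.10 in U-937, did not meet it.

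Only DNASE2 and ACP2 of the 4 phosphatases and nucleases were tested. DNASE2, the acid nuclease for engulfed DNA, read 18.5, 24.6 and 31.7 FPKM in U-937 with DMSO and 44.8, 32.6 and 40.9 FPKM with honokiol, without overlap (0.58, SE 0.20, adjusted p = 0.218), and had 0.41 (SE 0.19) in THP-1 with overlap. ACP2, an acid phosphatase, read 5.04, 3.90 and 4.63 FPKM in THP-1 with DMSO and 5.41, 6.09 and 5.18 FPKM with honokiol (0.23, SE 0.18, adjusted p = 0.594).

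The difference of the honokiol response between the lines was tested in a fit of all 12 libraries, in which 110 lysosome genes were included. By edgeR 0 passed an adjusted p of 0.05, where 0.111% of all genes did, and by DESeq2 0 did, where 1.52% of all genes did. At the unadjusted limit 9 had the more positive change in U-937, against 4.82% of all genes, and 2 the more positive change in THP-1, against 4.54%. These counts include genes that met the FPKM limit only through THP-1, whose response in U-937 is hardly measured. LAPTM4B (difference 1.66, at most 0.3 FPKM in U-937) was among the 9. CTSF (-5.64, at most 0.02 FPKM in U-937) was among the 2. The median difference was 0.16, beside 0.0097 over all genes, and was 0.07 without honokiol replicate 3 and 0.09 without DMSO replicate 3 of U-937. Among the 9 was GGA2, an adaptor of the same family as GGA3. It read 21.1, 26.3 and 29.3 FPKM and then 27.3, 21.8 and 20.5 FPKM in THP-1, and 11.7, 14.4 and 15.3 FPKM and then 21.4, 20.4 and 20.3 FPKM in U-937, a difference of 0.68 (SE 0.20, adjusted p = 0.321). HGSNAT differed by 0.97 (SE 0.39, adjusted p = 0.47) and AP4E1 by 0.63 (SE 0.20, adjusted p = 0.367). For CTSD the difference was 0.18 (SE 0.29) and for PSAP 0.19 (SE 0.33), within their errors.

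The lines were also compared with each other under DMSO. Here 59 of 107 lysosome genes tested passed an adjusted p of 0.05, of which 21 were higher in U-937 and 38 lower. Some of the 38, CTSL, LAPTM4B, ATP6V0A1, SORT1, CTSW and SGSH among them, met the FPKM limit only through THP-1, which favours a lower call. The same limit was set for all genes. Among all genes 22.0% were higher and 25.4% lower in U-937. The median log2 difference, U-937 minus THP-1, was -0.41, beside -0.041 over all genes. Without DMSO replicate 1 of THP-1 the calls were 49, 12 higher and 37 lower.

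Every role had lower calls, from 7 each in the sulfatase group and among sorting genes to 1 each among pump subunits and phosphatases. Of the 8 genes of the sulfatase group 7 were lower in U-937 and 0 higher. IDS, the exception, had -0.06 (SE 0.27). SGSH, among the 7, held 14, 10 and 15 estimated counts in U-937 with DMSO against 506, 355 and 597 in THP-1. It met the FPKM limit only through THP-1, and ARSG needed the THP-1 libraries to meet it, which favours a lower call. Of the lipid group, 4 were lower, among them PSAP at -1.78 (SE 0.25, adjusted p = 0.000539) and PPT1 at -1.87 (SE 0.26, adjusted p = 0.000489), and 3 higher. The summed level of that group was 2.80 times as high in THP-1 as in U-937, 640, 649 and 696 FPKM against 232, 236 and 240 FPKM.

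Several genes were present in THP-1 and close to absent in U-937. CTSL differed by -9.50 (SE 0.85, adjusted p = 5.1e-05), and its U-937 DMSO libraries held 23, 4 and 0 estimated counts. LAPTM4B, a membrane protein related to LAPTM4A, read 31.3, 27.9 and 43.4 FPKM in THP-1 and 0.02, 0.10 and 0.05 FPKM in U-937 with DMSO (-9.28, SE 0.48, adjusted p = 4.3e-06). ATP6V0A1, the a1 subunit of the pump, read 8.59, 4.77 and 6.93 FPKM in THP-1 against 0.01 FPKM in each U-937 library with DMSO (-9.19, SE 0.39, adjusted p = 2.45e-06). At counts this low in U-937 the fitted size is loose, and the levels show the contrast more directly. Since these genes met the FPKM limit only through THP-1, the outcome of the test was largely set by the filter.

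SORT1, a sorting receptor for hydrolases and saposins, read 4.36, 3.03 and 4.12 FPKM in THP-1 and 0.17, 0.22 and 0.32 FPKM in U-937 (-4.08, SE 0.30, adjusted p = 1.96e-05). It too met the FPKM limit only through THP-1. ACP2 differed by -2.37 (SE 0.37, adjusted p = 0.00103) and CD68 by -2.35 (SE 0.41, adjusted p = 0.00179). ATP6V0D2, the d2 subunit, went the other way, with 0 FPKM in all 6 THP-1 libraries and 0.41 to 1.93 FPKM in U-937.

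The genes higher in U-937 with DMSO included FUCA1, the alpha-fucosidase, at 23.1, 40.3 and 30.0 FPKM against 4.45, 7.40 and 7.09 FPKM in THP-1 (2.25, SE 0.25, adjusted p = 0.00016). IDUA, the iduronidase, was at 7.68, 4.16 and 4.45 FPKM against 0.85, 1.60 and 0.94 FPKM (2.22, SE 0.36, adjusted p = 0.00116). NPC1, the cholesterol exporter of the lysosomal membrane, was at 18.3, 14.8 and 13.3 FPKM against 3.32, 3.06 and 3.58 FPKM (2.17, SE 0.20, adjusted p = 5.45e-05). With honokiol, NPC1 had a log2 change of 0.09 (SE 0.14) in THP-1 and -0.38 (SE 0.22) in U-937. ASAH1 was higher by 1.57 (SE 0.17, adjusted p = 0.000138), ATP6V1H, a regulatory subunit of the pump, by 1.27 (SE 0.23, adjusted p = 0.00203) and CTSD by 0.74 (SE 0.24, adjusted p = 0.0313).

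**Figure D5:**
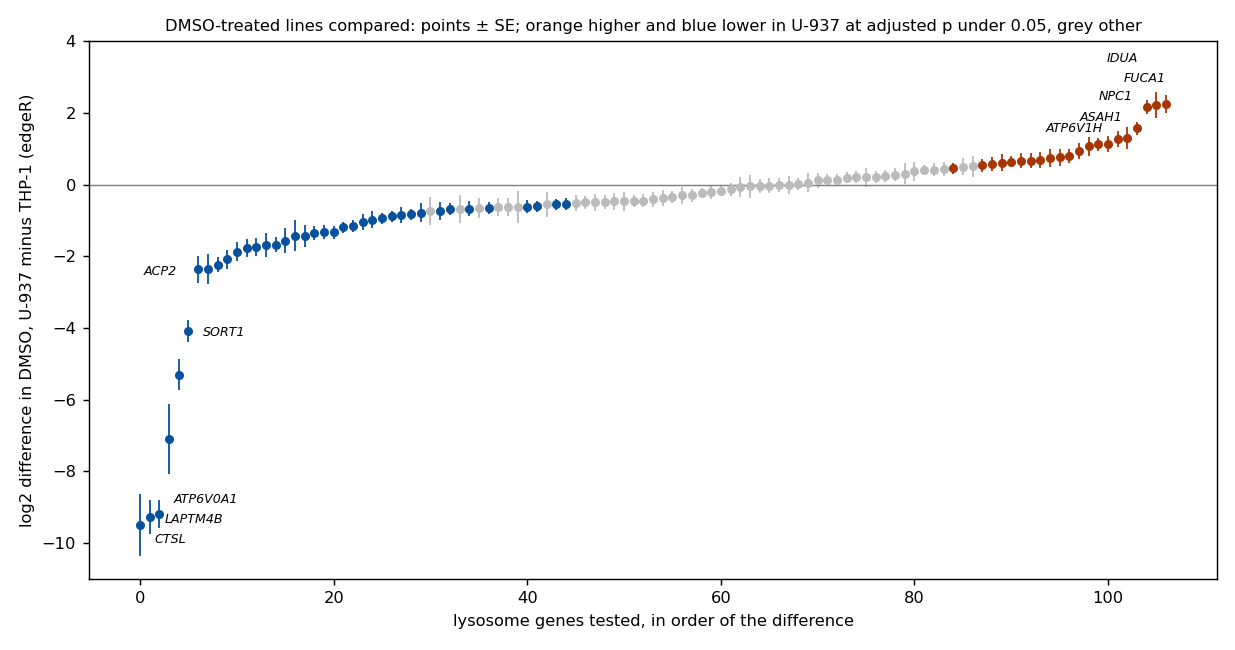
Log2 difference between DMSO-treated lines, U-937 minus THP-1 (vertical axis, ± SE), for the 107 lysosome genes tested, in order of size. The 21 genes higher in U-937 are orange, the 38 lower are blue and the others grey, and CTSL, LAPTM4B and ATP6V0A1 lie lowest, at -9.50, -9.28 and -9.19.

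The limit for a test, 0.5 FPKM in 3 of the 6 libraries, was missed in both lines by 10 lysosome genes: CTSE, LGMN, NAPSA, AP1M2, HYAL1, PSAPL1, ABCB9, LAMP3, ACP5 and DNASE2B. LGMN, the asparaginyl endopeptidase, was at 0.35 to 0.51 FPKM in THP-1 and at most 0.06 FPKM in U-937. A further 11 were tested in THP-1 alone and 1, ATP6V0D2, in U-937 alone.

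Regulators outside the list were read from lists of their own. Of the 4 MiT-TFE factors 0 passed the adjusted limit in either honokiol comparison, and 1 in each line was higher at the unadjusted limit: TFEB in THP-1 (3.53 to 4.75 FPKM in the mean, log2 change 0.37) and TFEC in U-937 (0.923 to 1.95 FPKM, 0.98). Among all genes 6.84% and 8.25% were higher at this limit. By sign all 4 were higher in THP-1, while in U-937 2 were higher and 2, TFEB at -0.12 and TFE3 at -0.06, lower. Of 12 genes of the Ragulator and Rag complexes and their partners, which tie the lysosome to growth signalling, 0 passed the adjusted limit. At the unadjusted limit THP-1 had 1 higher gene, RRAGD at 0.31, and U-937 had 4, among them FNIP2 at 0.84 and RRAGD at 0.42, beside the 6.84% and 8.25% of all genes given above. RRAGA at 0.36 was the highest value of the list in THP-1 without meeting the limit.

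The changes with honokiol are given beside the promoter letters as a description. The 24 genes with CACGTG had a median log2 change of 0.06 in THP-1 (21 tested, 13 higher) and 0.14 in U-937 (20 tested, 14 higher). The 66 genes whose promoters lacked it had 0.03 (61 tested, 35 higher) and 0.12 (54 tested, 37 higher). Of the 9 genes higher in both lines, 7 were in the promoter table and 2 of these, CTSD and AP1S2, held the letters. The 5 genes with the longest form ran from GALNS at -0.39 to MCOLN1 at 0.29 in THP-1. A match describes letters only.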

How the data were processed

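The authors sequenced 12 libraries of mRNA from both lines, 3 for each of the 4 groups of line and treatment, grouped here by the sample titles. The submitters' processing notes name Bowtie 0.12.2, HISAT2 2.0 and StringTie 1.3.0 and the mouse build mm8. The coordinates, however, are those of GRCh38: all 120 genes overlapped their GENCODE 29 entry and 26 had identical ends. Sequencing instrument and RNA amount differ between the labels and the methods, and the series text speaks of a microarray. The authors deposited FPKM values, which correct for transcript length and total, and estimated counts, which are whole numbers that the authors did not normalize. The counts are estimates from coverage, so depth limits low genes more than the totals show.

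Genes that reached 0.5 FPKM in 3 or more libraries of a comparison were tested on the estimated counts by edgeR's quasi-likelihood test with TMM normalization (edgeR 4.0.16, R 4.3.3). P-values were adjusted by Benjamini-Hochberg over all genes tested, and the SE was derived from the log2 change and its F statistic. The difference of the honokiol response between the lines was fitted on all 12 libraries. The fit was tested on simulated data. The changes planted there were in well-counted genes and larger than any honokiol change of a lysosome gene within a line. How well the fit finds smaller changes was therefore not tested. Genes named with values were the fixed reference genes, the member of each role that differed most in each direction without overlap of the libraries at a mean FPKM of at least 1, the 5 largest line differences each way at the same FPKM limit and the 5 most abundant. Other genes were named after their values were seen. The values of 2 genes are not reported here. The lysosome genes, role lists and rules were chosen with earlier results of these data known.

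Alternatives were RLE size factors, DESeq2 1.42.0, limma 3.58.1 on log2(FPKM) with pseudocounts of 0.1, 0.5 and 1, other filters, counts divided by 4, a replicate block, a fit of all 12 libraries, and each library left out.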

Additional observations from a re-analysis of the deposited data

How the results depend on the processing

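Among the values followed for genes named by the rule, only the 10 line differences in DMSO had an adjusted call. All kept it under every alternative run. These 10 were chosen as the largest differences already past the limit, so their kept calls do not speak for the other lysosome genes. CTSL, LAPTM4B, ATP6V0A1 and SORT1 among them met the FPKM limit only through THP-1, so their calls were largely set by the filter. In the honokiol comparisons 0 were called in the main fit, so no call could be lost there. Of the lysosome genes, DESeq2 called 4 in THP-1 (AP1S2, AP4S1, CTSD and CTSL) and 8 in U-937 (AGA, AP3S2, AP4E1, ASAH1, CTSD, GGA2, GM2A and PSAP), where it called 3.46% and 5.76% of all genes. The fit of all 12 libraries called 4 in U-937 (AP4E1, ASAH1, CTSD and GM2A), against 1.36% of all genes. With a library left out, the adjusted calls in THP-1 were 0 to 1 and the unadjusted counts 6 to 21 in THP-1, 10 to 23 in U-937 and 6 to 14 for the difference between the lines, where 6 was reached without honokiol replicate 3 of U-937. The median change in THP-1 was 0.0856, 0.103 and 0.0764 on log2(FPKM) with pseudocounts of 0.5, 0.1 and 1, and 0.00981 to 0.0583 with a library left out, where the U-937 median was 0.0804 to 0.263 and the median difference of the responses 0.0695 to 0.198. The median line difference was -0.312, -0.336 and -0.291 on those scales and -0.427 to -0.304 with a library left out. The summed level in U-937 was 1.23 times as high with honokiol as TMM-scaled CPM. With a library left out, CD63 ranged from -0.046 to 0.25 in THP-1, where it turned negative without DMSO replicate 1, and from -0.050 to 0.29 in U-937, where it turned negative without honokiol replicate 3. CD68 ranged from -0.73 to 0.20 in THP-1, where it turned positive without DMSO replicate 1. The cause of these shifts was not tested. Of the other values for single genes under an alternative, 973 kept direction and side of the limit and 15 newly passed it. Most of the 973 were honokiol values, which were not called in the main fit and stayed uncalled.

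Libraries with the same replicate number did not deviate together between treatments (r of -0.155 to 0.094 in THP-1 and -0.121 to -0.104 in U-937). Between the DMSO groups of the lines r was 0.028 to 0.113 for the same number. Not every pair exceeded 0.1, so the number was not taken to pair them. Between treatments, libraries of different number had r of -0.071 to 0.198 in THP-1 and -0.083 to 0.188 in U-937. What these values rest on was not tested, and a block by number does not cover such pairs. With a replicate block, the unadjusted counts were 13 in THP-1, 16 in U-937 and 6 for the difference, 0 genes were called with honokiol, 58 differed between the lines with DMSO, and 5 were higher with honokiol in both lines at the unadjusted limit.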
